A study of Mus musculus with 16 samples.

Results

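Fmo1, Fmo2, Fmo4 and Fmo5, genes of the flavin-containing monooxygenase family, were followed through 16 female mouse livers measured by bulk RNA sequencing. They were chosen by their family name and not by their values, and make up 4 of the 15544 genes in the table. All mice carried the floxed Esr1 gene (Esr1 fl/fl), which encodes oestrogen receptor alpha, and were 27 weeks old. Control mice carried no Cre. Mutant mice (Esr1 Nkx2-1Cre) also carried Cre recombinase under the Nkx2-1 promoter, which acts in cells that have expressed Nkx2-1, among them part of the hypothalamus, and not in hepatocytes. Each genotype was kept on chow or, for 17 weeks, on a high-fat diet (HFD), which gave 4 groups of 4 mice: Control_Chow, Mutant_Chow, Control_HFD and Mutant_HFD. The question of the comparisons was how genotype and diet bear on liver RNA when the receptor is lost in the brain.

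Flavin-containing monooxygenases are enzymes of the endoplasmic reticulum membrane that hold a bound FAD, take electrons from NADPH and use oxygen to add an oxygen atom to the nitrogen or sulphur of amines, thiols and many drugs. Unlike cytochromes P450, they need no separate reductase, because NADPH reduces their own flavin. Fmo1 acts on a wide range of amines and sulphides and is also abundant in kidney. Fmo2 is known best as the form of the lung. Fmo5 is an unusual member that oxidises ketones and aldehydes more readily than amines and has been tied to metabolic ageing, and Fmo4 is the least studied. In mouse liver, Fmo1 is known to be higher in females than in males.

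The start of each coding sequence is shown because the members share there the glycine-rich motif that binds FAD. In GENCODE release M21 on GRCm38, Fmo4 (chr1:162793188-162813972), Fmo1 (chr1:162829561-162866610) and Fmo2 (chr1:162874317-162898726) lay on the minus strand of chromosome 1 within 105539 bases, and Fmo5 (chr3:97628804-97655282) lay alone on the plus strand of chromosome 3. All were annotated as protein-coding, and the transcript used for each had 9 exons. The first 60 coding bases follow, 5′ to 3′ on the coding strand, with the 6 codons of the motif GxGxxG in capitals.
Fmo1: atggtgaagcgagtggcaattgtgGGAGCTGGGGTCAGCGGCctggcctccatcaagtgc
Fmo2: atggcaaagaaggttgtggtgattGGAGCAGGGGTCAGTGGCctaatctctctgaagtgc
Fmo4: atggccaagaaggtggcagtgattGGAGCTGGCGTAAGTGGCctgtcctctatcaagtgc
Fmo5: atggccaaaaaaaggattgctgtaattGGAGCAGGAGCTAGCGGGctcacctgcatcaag
The motif began at residue 9 in Fmo1, Fmo2 and Fmo4 and at residue 10 in Fmo5. The coding sequences encoded 532 residues in Fmo1, 535 in Fmo2, 560 in Fmo4 and 533 in Fmo5. Aligned over their whole length, pairs of members were identical at 59.3% of coding bases (Fmo1 and Fmo5) to 63.0% (Fmo2 and Fmo4).

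The members were distinct enough for their reads to be assigned separately. No stretch of 31 bases was shared between any pair of members across their 26 annotated transcripts, and the longest run that any pair shared in its coding sequences was 24 bases. Stretches also found in transcripts of other genes made up 7.95% of those of Fmo1, 0.473% of those of Fmo5, 0.0355% of those of Fmo2 and 0% of those of Fmo4. Fmo1 was thus the member with most sequence that other genes also hold, and the place of these stretches in its transcripts was not tested.

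The values are a signal per gene on the scale of TPM, in which each gene has its share of all transcripts and reads are divided by transcript length, so that levels can be compared between genes. Column totals ranged from 905897 to 1119703, and the number of genes at 1 or more was 11834 to 12443 per library. Depth is unknown on this scale. The numbers in the library titles fell into 4 runs, here called title series, and the labels do not say what they mean. On HFD the lower-numbered series held Control_HFD 1 to 3 and Mutant_HFD 1, and the higher-numbered series held Mutant_HFD 2 to 4 and Control_HFD 4. On chow the lower-numbered series held Control_Chow 1 and 2 and Mutant_Chow 1, and the higher-numbered series held the other 5 chow libraries. The lower-numbered HFD series, with 4 libraries, stood apart from all others on the first principal component, which took 27.6% of the variance. Mutant_Chow 1 and 2 stood apart from the other 6 chow libraries, at 24.87 and 48.85 on the first component (the others between -11.53 and 9.35) and at -32.69 and -43.95 on the second (the others between 6.97 and 15.90). Within their group these libraries had the lowest values of each of the 4 members. All 5 hepatocyte markers (Alb, Apoa1, Ttr, Cps1 and Serpina1a) were above 1 in every library. Esr1 itself lay between 6.14 and 22.9 in liver, where it was not deleted, so that its level does not check the genotype labels.

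Fmo1 and Fmo5 were abundant in every liver, and Fmo2 and Fmo4 were an order of magnitude lower. By mean level over all libraries, Fmo1 ranked 497 and Fmo5 ranked 642 of 15544 genes, and Fmo4 ranked 4086 and Fmo2 ranked 4287. The order was Fmo1, Fmo5, Fmo4, Fmo2 in 10 libraries and Fmo1, Fmo5, Fmo2, Fmo4 in 4. In the remaining 2 libraries, Control_HFD 1 and 2, Fmo5 was above Fmo1. Neighbours in this order were therefore not always apart. The ratio of Fmo1 to Fmo5 was 1.45 ± 0.155 (SD, n = 4) in Control_Chow, 1.51 ± 0.0830 in Mutant_Chow, 1.01 ± 0.337 in Control_HFD and 1.41 ± 0.305 in Mutant_HFD. The ratio of Fmo2 to Fmo4 was 0.878 ± 0.154, 0.574 ± 0.0490, 2.16 ± 1.06 and 0.960 ± 0.632 in the same groups. It was below 1 in all 4 Mutant_Chow libraries and above 1 in all 4 Control_HFD libraries. Only 1 Control_Chow library (1.03) and 1 Mutant_HFD library (1.90) were above 1. The high ratios lay in the lower-numbered HFD series, at 1.48, 3.24 and 2.87 in its controls and 1.90 in Mutant_HFD 1. In the higher-numbered HFD series Control_HFD 4 was at 1.05 and the mutants at 0.582 to 0.747. The share of other gene pairs that separated in this way was not computed. The summed level of the members was 494 ± 53.7 in Control_Chow, 466 ± 68.6 in Mutant_Chow, 498 ± 66.3 in Control_HFD and 532 ± 89.2 in Mutant_HFD, so that the groups differed by less than their spread.

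**Figure D1:**
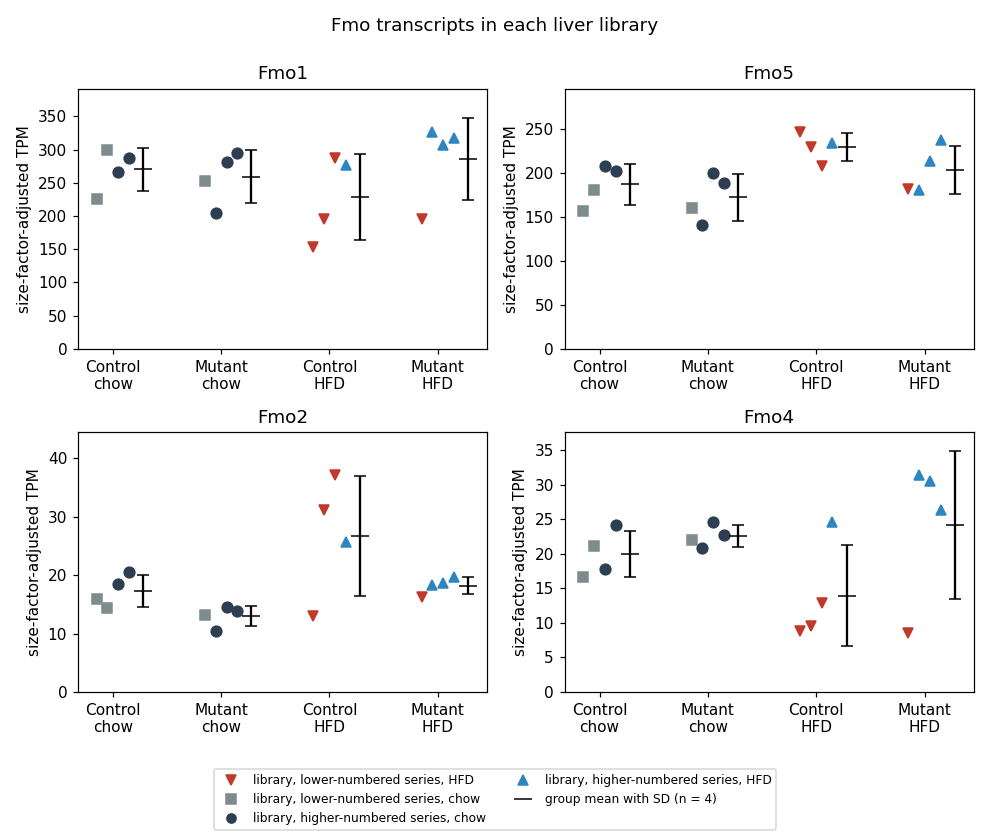
Each panel plots 1 member, with the 4 groups on the x axis and the size-factor-adjusted TPM on the y axis. Symbols are single libraries, marked by title series, and bars are group means with SD (n = 4). Fmo4 lay between 8.50 and 12.95 in the lower-numbered HFD series (4 libraries) and between 16.7 and 31.4 in all others.

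Fmo1 had the highest level of the members and varied 2.13-fold between libraries. Its levels were 226, 299.7, 267 and 288 in Control_Chow (mean 270.0 ± 32.6, SD, n = 4) and 253, 205, 282 and 295 in Mutant_Chow (259 ± 39.9). On HFD they were 153, 196, 287 and 277 in Control_HFD (228 ± 64.6) and 195, 326.4, 306 and 317 in Mutant_HFD (286 ± 61.4). All groups overlapped. The lowest values of the HFD groups were Control_HFD 1 and 2 and Mutant_HFD 1, all of the lower-numbered series, although Control_HFD 3 of the same series was among the highest controls.

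Fmo5 was the steadiest member, with a 1.75-fold range. Its levels were 157, 181, 208.0 and 202 in Control_Chow (187 ± 23.2) and 160.1, 141, 199.5 and 188 in Mutant_Chow (172 ± 26.8). On HFD they were 246, 229, 208.1 and 234.4 in Control_HFD (229.5 ± 16.04) and 181, 180.4, 213 and 238 in Mutant_HFD (203 ± 27.6). All Control_HFD libraries were above all Control_Chow libraries, by as little as 208.1 against 208.0 for the nearest pair. The share of all tested genes that separated in this way was not computed. The other groups that were compared overlapped.

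Fmo2 was lower in mutant than in control means on both diets and higher on HFD than on chow in both genotypes. Its levels were 15.9, 14.4, 18.4 and 20.5 in Control_Chow (17.3 ± 2.73) and 13.2, 10.5, 14.6 and 13.8 in Mutant_Chow (13.01 ± 1.78). On HFD they were 13.01, 31.1, 37.1 and 25.7 in Control_HFD (26.7 ± 10.3) and 16.2, 18.3, 18.6 and 19.7 in Mutant_HFD (18.2 ± 1.48). Only Mutant_Chow 3 kept the chow genotypes from separating, since it lay just above Control_Chow 2. All Mutant_HFD libraries were above all Mutant_Chow libraries, and the share of all tested genes that separated in this way was not computed. Control_HFD was the most scattered group, with a coefficient of variation of 38.4%, and its library 1 was below every Mutant_HFD library.

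Fmo4 varied most, 3.70-fold between libraries, and its standard deviation on the log2 scale (0.58) was larger than that of 91.7% of the tested genes. Its levels were 16.7, 21.2, 17.8 and 24.2 in Control_Chow (19.99 ± 3.39) and 22.0, 20.9, 24.7 and 22.8 in Mutant_Chow (22.6 ± 1.59). On HFD they were 8.77, 9.59, 12.95 and 24.6 in Control_HFD (13.98 ± 7.31) and 8.50, 31.4, 30.6 and 26.4 in Mutant_HFD (24.2 ± 10.7). The spread arose on HFD, where each genotype had a single library far from the others. Control_HFD 4 was high among controls and Mutant_HFD 1 was low among mutants, and each of them belonged to the title series that otherwise held the other genotype.

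On chow, no member passed the test between the genotypes. Under limma on log2(value + 1), with Benjamini-Hochberg adjustment over 12704 genes, 0 of 4 members passed an adjusted p of 0.05, against 0.0236% of all tested genes, and 0 of 4 had an unadjusted p under 0.05, against 6.08%. Fmo2 had the largest difference, a log2 fold change of -0.38 (SE 0.231, 95% confidence interval -0.87 to 0.11, adjusted p = 0.875 by limma). Fmo4 was at 0.18 (-0.56 to 0.92), Fmo5 at -0.12 (-0.41 to 0.16) and Fmo1 at -0.07 (-0.51 to 0.38). The intervals thus leave room for a change of Fmo4 of nearly a log2 unit. Without Mutant_Chow 1 and 2, left out after the data were seen, Fmo2 was at -0.26, Fmo4 at 0.25, and Fmo1 and Fmo5 turned to 0.10 and 0.06, with none past the threshold.

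On HFD, Fmo4 and Fmo1 were higher and Fmo2 and Fmo5 lower in mutants by their means, and none passed the test. The count was 0 of 4 by adjusted p, against 0.0157% of all tested genes, and 0 of 4 by unadjusted p, against 8.60%. Fmo4 was at a log2 fold change of 0.71 (SE 0.346, interval -0.02 to 1.45, adjusted p = 0.577 by limma). Fmo2 was at -0.44 (SE 0.231, interval -0.93 to 0.05, adjusted p = 0.587), and Fmo1 at 0.34 (interval -0.10 to 0.79). Fmo5 differed least, at -0.18 (interval -0.47 to 0.10). Single controls moved the Fmo2 value, which was -0.74 without Control_HFD 1 and -0.26 without Control_HFD 3. Fmo1 was at 0.17 without Control_HFD 1 and 0.52 without Mutant_HFD 1.

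The HFD genotype difference of Fmo4 followed the title series. In the lower-numbered series the mutant library (8.50) was below its 3 control libraries (8.77, 9.59 and 12.95). In the higher-numbered series the 3 mutant libraries (31.4, 30.6 and 26.4) were above the control library (24.6). With the title series as a term, the Fmo4 genotype difference on HFD was 0.00 (SE 0.165, adjusted p = 1.000 by limma), and that of Fmo1 was 0.06 (SE 0.200). Without both Mutant_HFD 1 and Control_HFD 4 it became 1.43 for Fmo4 (SE 0.154, adjusted p = 0.000176) and 0.62 for Fmo1 (SE 0.197, adjusted p = 0.0390), with 21.4% of all tested genes called, but then every remaining control was of the lower-numbered and every remaining mutant of the higher-numbered series, and genotype and series cannot be told apart. Without Mutant_HFD 1 alone the Fmo4 difference was 1.13 (adjusted p = 0.0442, with 1.11% of all tested genes called), and without Control_HFD 4 alone it was 1.01.

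**Figure D2:**
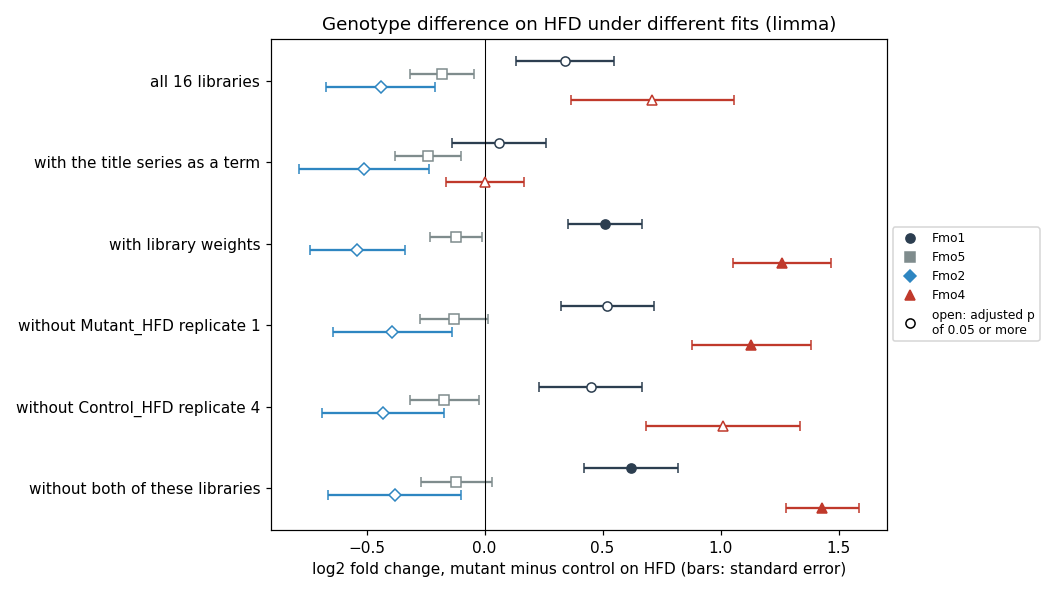
The x axis gives the log2 fold change between Mutant_HFD and Control_HFD (positive where mutants were higher) for each member under 6 limma fits, which are listed on the y axis. Bars are standard errors and filled symbols have an adjusted p under 0.05. Fmo4 moved from 0.00 with the title series as a term to 1.43 without both single libraries, while Fmo2 lay between -0.54 and -0.38 in these 6 fits and between -0.74 and -0.26 when other single libraries were left out.

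Between the title series within HFD, 1 of 4 members, Fmo4, passed the threshold, a share near that of all tested genes. This comparison, made after the data were seen, put the higher-numbered against the lower-numbered HFD series with genotype in the fit. Fmo4 was higher by 1.43 on the log2 scale (SE 0.165, interval 1.07 to 1.78, adjusted p = 0.000187 by limma) and ranked 61 of 12704 genes by p. Fmo1 was at 0.57 (interval 0.13 to 1.00, adjusted p = 0.0541), Fmo2 at 0.13 and Fmo5 at 0.12. This was 1 of 4 members, against 25.2% of all tested genes, so the share is near the background. Between the chow series 0 of 4 members passed, against 0% of all tested genes, and the Fmo4 difference was 0.10 (interval -0.23 to 0.43).

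The summed levels of several marker lists differed with the same split of the HFD libraries. The summed level of the 5 hepatocyte markers was 55917 to 71701 in the lower-numbered and 74447 to 98134 in the higher-numbered HFD series, that of 5 endothelial markers 108 to 119.8 and 129 to 148, and that of 5 stellate cell and fibroblast markers 140.4 to 155 and 180.1 to 227. Red cell markers were higher in the lower-numbered series, at 4830 to 6922 against 1695 to 4547. The 5 Kupffer cell markers were at 261 to 383 against 196 to 261, so that these ranges met at 261. Alb and Dcn were by far the most abundant genes of the hepatocyte and the stellate cell and fibroblast lists. Means of single genes are given by genotype, which mixes the HFD series, so they do not show which genes carried the sums. Alb had a mean of 49476 in Control_HFD and 63707 in Mutant_HFD, and Serpina1a was also higher in Mutant_HFD. Apoa1, Ttr and Cps1 had lower means in Mutant_HFD. Dcn was at 119.6 and 135, while the others of its list had lower means in Mutant_HFD. Of the Kupffer cell markers, Clec4f (139.6 in Control_HFD and 104 in Mutant_HFD) and Cd5l (98.3 and 81.6) had lower means in Mutant_HFD. The others of that list did not. The part of these lists in the Fmo4 difference was not tested. In whole liver RNA, fewer cells of a type and less RNA per cell cannot be told apart.

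For Fmo2, the mutant libraries were below the control libraries in the title series in which both genotypes could be set side by side on chow. In the lower-numbered chow series the mutant was at 13.2 and the controls at 15.9 and 14.4. In the higher-numbered chow series the mutants were at 10.5 to 14.6 and the controls at 18.4 and 20.5. In the higher-numbered HFD series the mutants were at 18.3 to 19.7 and the control at 25.7, whereas in the lower-numbered HFD series the mutant (16.2) fell inside the range of the controls (13.01 to 37.1). Averaged over both diets, the Fmo2 genotype difference was -0.41 (SE 0.163, interval -0.76 to -0.06), with an unadjusted p of 0.0231 and an adjusted p of 0.492 by limma, so it failed the correction. In that comparison 0 of 4 members passed by adjusted p, against 0.0630% of all tested genes, and 1 of 4 by unadjusted p, against 8.98%. Fmo4 was at 0.45 (interval -0.07 to 0.97), Fmo1 at 0.14 (-0.18 to 0.45) and Fmo5 at -0.15 (-0.35 to 0.05).

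**Figure D3:**
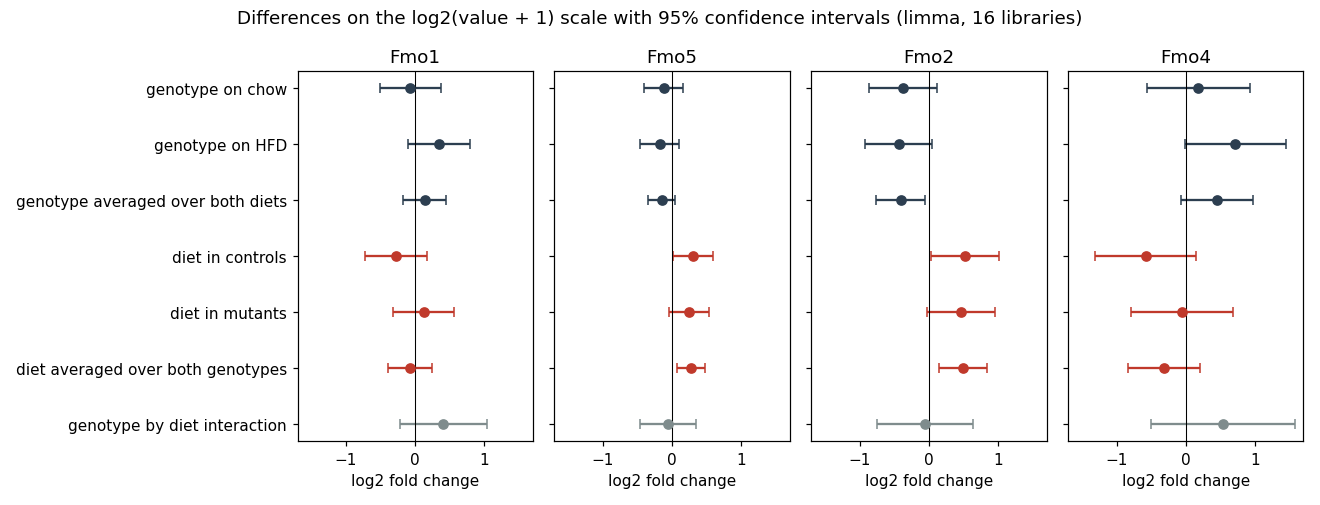
Each panel shows, for 1 member, the log2 fold change on the log2(value + 1) scale (x axis) in the 7 comparisons (y axis), with 95% confidence intervals from limma on 16 libraries. Positive values are higher in mutants (genotype, dark), higher on HFD (diet, red), or a larger mutant minus control difference on HFD than on chow (interaction, grey). No member passed the adjusted threshold. The intervals of Fmo2 and Fmo5 for diet averaged over both genotypes, 0.14 to 0.84 and 0.07 to 0.47, do not span 0. Nor do those of Fmo2 and Fmo5 for diet in controls (0.03 to 1.01 and 0.01 to 0.59). The interval of Fmo2 for genotype averaged over both diets (-0.76 to -0.06) does not span 0 either.

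The diet comparison concerned Fmo2 and Fmo5, which had higher means on HFD in both genotypes. In controls, Fmo2 was at a log2 fold change of 0.52 (SE 0.231, interval 0.03 to 1.01, adjusted p = 0.357 by limma) and Fmo5 at 0.30 (SE 0.134, interval 0.01 to 0.59, adjusted p = 0.360). Fmo4 was at -0.58 (interval -1.32 to 0.15) and Fmo1 at -0.28 (interval -0.72 to 0.17). The count in controls was 0 of 4 by adjusted p, against 0% of all tested genes, and 2 of 4 by unadjusted p, against 12.9%. No gene of the table passed that comparison, and the smallest adjusted p of any gene was 0.0842.

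In mutants, Fmo2 was at 0.46 (SE 0.231, interval -0.03 to 0.95, adjusted p = 0.747 by limma) and Fmo5 at 0.24 (SE 0.134, interval -0.04 to 0.53, adjusted p = 0.763). Fmo1 was at 0.13 and Fmo4 at -0.05. The count in mutants was 0 of 4 by adjusted p, against 0% of all tested genes, and 0 of 4 by unadjusted p, against 6.86%. Neither diet comparison gave a call, and single libraries moved both members. In controls Fmo2 was at 0.82 without Control_HFD 1 and 0.34 without Control_HFD 3. In mutants Fmo5 was at 0.15 without Mutant_Chow 2, and at 0.06 without Mutant_Chow 1 and 2, a fit in which Fmo2 was at 0.34.

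Averaged over both genotypes, the HFD difference was 0.49 for Fmo2 (SE 0.163, unadjusted p = 0.00878, adjusted p = 0.214 by limma) and 0.27 for Fmo5 (SE 0.0948, unadjusted p = 0.0118, adjusted p = 0.228 by limma). These were the smallest p-values of the members in any of the genotype or diet comparisons, and both failed the correction. Fmo4 was at -0.32 (interval -0.84 to 0.20) and Fmo1 at -0.08 (interval -0.39 to 0.24). The count was 0 of 4 by adjusted p, against 0.134% of all tested genes, and 2 of 4 by unadjusted p, against 14.1%. With the whole lower-numbered HFD series left out, a choice made after the data were seen, Fmo2 was at 0.54 and Fmo5 at 0.31, while Fmo4 turned from -0.32 to 0.33 and Fmo1 from -0.08 to 0.17. Each title series lay within a single diet, so diet and series cannot be told apart in these comparisons.

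The genotype difference was not shown to depend on diet for any member. The interaction (the genotype difference on HFD minus that on chow) was 0.53 for Fmo4 (interval -0.51 to 1.57), 0.41 for Fmo1 (-0.22 to 1.04), -0.06 for Fmo2 (-0.75 to 0.64) and -0.06 for Fmo5 (-0.46 to 0.35), with adjusted p from 0.895 to 0.979 by limma. The count was 0 of 4 by adjusted p, against 0% of all tested genes, and 0 of 4 by unadjusted p, against 4.21%. The intervals of Fmo4 and Fmo1 are wide enough to hold differences of a log2 unit between the diets.

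How the members varied together from mouse to mouse depended on which libraries were taken. Over the 16 libraries, which share the libraries' scaling and the title series, Pearson's r of log2(value + 1) was 0.82 for Fmo1 and Fmo4, and 0.81 after the group means were taken out. Because the lower-numbered HFD series stood apart, r was also taken over the 12 other libraries, where it was 0.71. Fmo2 and Fmo5 gave 0.56 over 16 libraries, 0.11 after the group means were taken out and 0.82 over the 12 libraries. Fmo2 and Fmo4 gave -0.17, 0.32 and 0.35 in the same order. Fmo4 and Fmo1 are neighbours on chromosome 1 with 15588 bases between them, and Fmo1 and Fmo2, with 7706 bases between them, gave 0.23 over the 16 libraries, 0.67 after the group means were taken out and 0.54 over the 12 libraries. Fmo1 and Fmo5, on different chromosomes, gave 0.02, 0.31 and 0.71, and Fmo4 and Fmo5 gave -0.17, 0.26 and 0.44. Over the 12 libraries all 6 pairs were thus positive. By Pearson's r the pair of Fmo1 and Fmo4 was no higher than that of Fmo1 and Fmo5 (0.71 in each). By Spearman's rank correlation over the same libraries the pair of Fmo1 and Fmo4 was higher, at 0.78 against 0.48. The 12 libraries include the Mutant_Chow libraries that stood apart on the principal components and had the lowest values of each member in their group. The part of those libraries in these correlations was not tested.

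**Figure D4:**
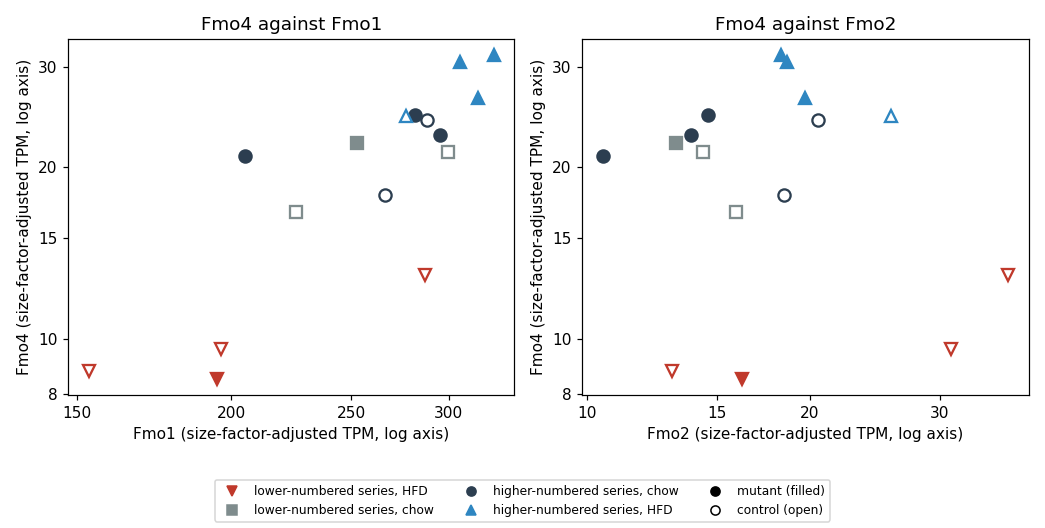
Fmo4 (y axis) is plotted against Fmo1 (left) and Fmo2 (right), both in size-factor-adjusted TPM on log axes, with 1 symbol a library, marked by title series and filled for mutants. Fmo4 followed Fmo1 (r = 0.82) more than Fmo2 (r = -0.17), and the lower-numbered HFD series, at 8.50 to 12.95 of Fmo4, lay below all other libraries.

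The genes whose levels followed each member most closely differed between members. For Fmo1 the leading genes were Rnf6, a ubiquitin ligase (r = 0.898 over 16 libraries and 0.792 over the 12), Elovl6, a fatty acid elongase (0.896 and 0.749), and Shmt1, a serine hydroxymethyltransferase (0.877 and 0.900), followed by Acad9 and Cyp2c68. For Fmo4 they were Guf1, a factor of mitochondrial translation (0.951 and 0.755), Klhl11 (0.941 and 0.656), Stard4, a cholesterol transfer protein (0.938 and 0.740), Pm20d1 and Iqgap2. Each of the 5 genes of Fmo4 had a lower r once the lower-numbered HFD series was left out.

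For Fmo2 the leading gene was Vpreb3, known from B cell precursors (0.941 over 16 libraries and 0.935 over the 12), followed by Cnn3, a calponin (0.891 and 0.846), Eno1, a glycolytic enolase (0.863 and 0.839), Gm45727 and Spag4. For Fmo5 they were Idh3g, a subunit of mitochondrial isocitrate dehydrogenase (0.849 and 0.857), Hsd3b3, a steroid dehydrogenase (0.832 and 0.860), Smarca2, a chromatin remodeller, Crebl2 and Etnppl. After the group means were taken out, Rnf6 and Elovl6 stayed among the 5 closest genes of Fmo1, Vpreb3 of Fmo2, Stard4 of Fmo4, and Crebl2 and Etnppl of Fmo5. These are the highest values among all tested genes, and they are given as a description.

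Genes that supply the cofactors of the enzymes gave no call in comparisons where 0% to 0.134% of all tested genes passed. Of the FAD supply genes, 0 of 4 tested passed in any comparison, and their median log2 fold change was 0.03 for genotype on chow and 0.12 for genotype on HFD, against 0.02 over all genes in both. Rfk, the riboflavin kinase that makes the precursor of FAD, had a level of 33.2 ± 1.52 in Control_Chow, 36.1 ± 1.96 in Mutant_Chow, 32.6 ± 2.50 in Control_HFD and 38.4 ± 5.48 in Mutant_HFD. Flad1, the FAD synthase, was at 25.6 ± 2.56, 24.0 ± 3.24, 28.4 ± 4.46 and 24.0 ± 3.69 in the same groups. Of the NADPH supply genes, 0 of 10 passed, with medians of 0.10 for genotype on chow and -0.06 for genotype on HFD. By unadjusted p, 2 of 10 were higher in mutants on chow, against 6.08% of all tested genes in either direction, and 3 of 10 were lower on HFD in mutants, against 6.86%. Pgd, an enzyme of the pentose phosphate pathway, was at 0.66 for genotype on chow (adjusted p = 0.590 by limma). Of the microsomal electron transfer genes, 0 of 4 passed, and Por, the reductase of the cytochromes P450, was between 208 and 518 over the 16 libraries. Of 13 genes of choline and amine handling and of 15 receptors and liver transcription factors, 0 passed in any comparison. For diet in controls, 2 of the 13 choline and amine genes were higher and 5 lower on HFD by unadjusted p, against 12.9% of all tested genes in either direction. In that comparison 1 of the 15 receptors and factors was higher and 2 were lower.

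Genes known to be higher in female than in male liver had larger genotype differences than the members by their median. In a list of 23 such genes, chosen with earlier results of these data known, 1 passed for genotype on chow, against 0.0236% of all tested genes. This was Sult1e1, an oestrogen sulphotransferase, at 0.552 ± 0.344 in Control_Chow and 9.83 ± 6.71 in Mutant_Chow (log2 fold change 2.62, SE 0.362, adjusted p = 0.0163 by limma). By unadjusted p, 4 of the 23 were higher and 1 was lower in mutants on chow, against 6.08% of all tested genes in either direction. The lower one was Cyp2b13, at 389.8 ± 89.0 in Control_Chow and 106 ± 112 in Mutant_Chow. On HFD 14 of the 23 were higher and 0 lower by unadjusted p, against 8.60% of all tested genes. Averaged over both diets 17 were higher and 1 was lower, against 8.98%. Sult1e1 passed there too (adjusted p = 0.00345 by limma), against 0.0630% of all tested genes. The median of the list was 0.73 on chow and 1.17 on HFD, beside Fmo1, itself known as female-biased, at -0.07 and 0.34. The summed level of the list on HFD was 2195 to 3921 in the lower-numbered and 3773 to 12844 in the higher-numbered series. These ranges overlapped. By genotype, the summed level was 2195 to 3921 in Control_HFD and 2989 to 12844 in Mutant_HFD. Of 12 tested male-biased genes 0 passed, with medians of -0.13 and -0.23. Of 10 pericentral and 10 periportal hepatocyte genes 0 passed in any comparison, and the medians for genotype on HFD were 0.33 and -0.35. For these 3 lists the share of all tested genes that passed was 0% to 0.134% in the comparisons.

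Many markers of other organs had no row, and of those with a row Lrp2, Sftpa1 and Plin1 were low. The kidney marker Lrp2 was between 0.0914 and 0.379, and Umod, Slc34a1 and Kap had no row in the table used. The lung marker Sftpa1 was between 0.101 and 2.32, and Sftpc and Scgb1a1 had no row, while Fmo2 was between 10.5 and 37.1 in the same libraries. Adipoq, Lep and Cfd, which define adipocytes, had no row. Plin1 was between 0 and 0.149, and Cidec, which fatty hepatocytes also express, was between 4.12 and 13.5. The pancreas marker Cela1 was not low, at 6.38 to 30.2, with Prss2, Cpa1 and Pnlip having no row. The part of other tissues in the members' values was not tested. None of the tested markers of cholangiocytes, Kupffer cells, endothelium, stellate cells, adipocytes, red cells, pancreas or lung passed in any comparison. Of all tested genes only 0% to 0.134% passed in these comparisons.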

How the data were processed

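Liver RNA was sequenced from 16 mice after library preparation by a NEBNext Ultra II kit. The authors quantified transcripts with kallisto (mm10 per the labels) and used sleuth for their own tests. Tool versions, annotation release and filters were not given in the sources used here. The deposited values are a signal per gene, taken from the values to be TPM adjusted by size factors. Kallisto splits reads between similar transcripts by estimation, and this scale keeps no depth, so that no counting interval was computed and precision rests on the spread between mice.

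Groups were taken from the genotype and treatment labels, and replicates were numbered in sample order. Differences were tested with limma 3.58.1 in R 4.3.3 on log2(value + 1), in a single fit of 4 group means over 16 libraries with a variance trend. Fold changes on this scale are understated for low genes. The 12704 genes with a value of at least 1 in at least 4 libraries were tested, and all 4 members passed this filter. Benjamini-Hochberg adjustment ran over all of them (threshold 0.05), and the script was tested on simulated data. Members and lists were chosen with earlier results of these data known. Named genes were the members, the 5 genes closest to each member by Pearson's r over all libraries and on the residuals from the group means, and, from each list, at most 4 genes in its order of writing or those past the threshold. Esr1, the targeted gene, all markers of hepatocytes and adipocytes, and the markers of other organs are named besides. Sequences came from GENCODE release M21 (GRCm38), which matched 15531 gene identifiers and may differ from the authors' annotation. A further gene of the family is not reported here, and Fmo6, Fmo9, Fmo12 and Fmo13 were not analysed here. Alternatives covered scaling, pseudocount, filter, libraries in the fit, weights, title series and leaving out libraries. The series comparison and the fits without the lower-numbered HFD series or without Mutant_Chow 1 and 2 were added after the data were seen.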

Additional observations from a re-analysis of the deposited data

Results flagged for a closer look

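Fmo1 in Mutant_HFD replicate 1 was at 195, far below the other 3 Mutant_HFD libraries (306, 317 and 326.4). The gap to the nearest library was 0.849 of the range of the group, above Dixon's 95% critical value for 4 values. Chance marks about 1 in 20 groups in this way, and each of the 4 members was searched in each of the 4 groups. The same library had the lowest Fmo4 of all 16 libraries (8.50) and was the only mutant in the lower-numbered HFD title series, whose control libraries had Fmo1 at 153, 196 and 287. The cause was not tested.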

How the results depend on the processing

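No paired analysis was possible because the labels give no replicate numbers. The count of members past the threshold, 0 of 4 in all 7 comparisons, changed in 4 of them. For genotype on HFD it was 2 with library weights, where 30.9% of all tested genes passed, 2 without both Mutant_HFD 1 and Control_HFD 4 (21.4%), and 0 to 1 when single libraries were left out, with the 1 without Mutant_HFD 1 (1.11%). For diet in controls it was 2 with weights (17.8%) and 1 without both libraries (1897 of 12608 genes). For genotype averaged over both diets it was 1 with weights (8.03%) and 1 without both (13.3%), and for the interaction it was 1 without both (7.30%). Library weights counted Control_HFD 4 at 0.228 and Mutant_HFD 1 at 0.329, the lowest weights of all libraries.

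Of the members' fold changes under the alternatives, 575 kept their direction and side of the threshold, 11 passed the threshold only under an alternative and 30 changed sign, all of these without passing it. Those that passed were, with library weights, genotype on HFD for Fmo1 (0.51) and Fmo4 (1.26), diet in controls for Fmo2 (0.65) and Fmo4 (-0.80), and genotype averaged over both diets for Fmo4 (0.74). Without both libraries they were genotype on HFD for Fmo1 (0.62) and Fmo4 (1.43), diet in controls (-0.88), genotype averaged over both diets (0.80) and the interaction (1.25) for Fmo4. Without Mutant_HFD replicate 1 it was genotype on HFD for Fmo4 (1.13). With the title series as a term, Fmo4 was at 0.00 for genotype on HFD and -0.16 for the interaction, and Fmo1 at -0.01 for genotype averaged over both diets. Weights turned Fmo1 for genotype on chow to 0.03 and Fmo4 for diet in mutants to 0.24. Without both libraries Fmo4 was at 0.37 for diet in mutants, and the interaction was 0.01 for Fmo2 and 0.00 for Fmo5. Rescaling every column to the same total turned the interaction to 0.10 for Fmo2 and 0.11 for Fmo5. Rescaling without the 20 most abundant genes turned it to 0.12 and 0.13 and put Fmo4 at 0.01 for diet in mutants. These 2 scalings moved the median interaction of all genes from -0.01 to 0.13 and 0.15, and that of diet in controls from -0.01 to -0.16 and -0.11. Without the lower-numbered HFD series, Fmo1 was at 0.05 and Fmo4 at 0.30 for diet in controls, Fmo4 at 0.37 for diet in mutants, and Fmo1 at 0.17 and Fmo4 at 0.33 for diet averaged over both genotypes. Without Mutant_Chow 1 and 2, also left out after the data were seen, Fmo1 was at 0.10 and Fmo5 at 0.06 for genotype on chow, and Fmo1 at -0.04 for diet in mutants. The causes of these shifts were not tested. Leaving out single libraries gave ranges across 0 of -0.15 to 0.04 for Fmo1 (genotype on chow), -0.22 to 0.37 for Fmo4 (diet in mutants), -0.14 to 0.01 for Fmo1 (diet averaged over both genotypes), and, for the interaction, -0.36 to 0.13 for Fmo2 and -0.15 to 0.02 for Fmo5. The fits with another pseudocount or filter, or with only the groups compared, changed no call of a member. Title series could not be fitted as a term in the diet comparisons. The depth of the libraries is unknown and its part was not tested.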
